A study of Mus musculus with 2 samples.

Results

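The Fc gamma receptors of the mouse are surface proteins of immune cells that hold IgG antibodies by their constant part. They were measured here through 6 genes taken by symbol from the 32285 features of each count table. These were the activating receptors Fcgr1, Fcgr3 and Fcgr4, the inhibitory receptor Fcgr2b, the signalling adaptor Fcer1g and the IgG recycling receptor Fcgrt. All 6 were found in both libraries. The cells were isolated with CD45 beads, which hold immune cells, from tumors of 143B, a human osteosarcoma line, grown in female nude mice that were 4 weeks old at inoculation. One group received 10 mg/kg of a human IgG1 isotype control, called control IgG, and the other 10 mg/kg of anti-CD3L1, a humanized IgG1 antibody against the tumor protein CD3L1, both in 4 doses at intervals of 3 days. Mice of both groups therefore carried an injected IgG1 with an Fc part, and no group without injected IgG was analysed here. Nude mice lack a normal T cell compartment and keep B cells, natural killer (NK) cells and myeloid cells. Each group gave 1 library, made from 3 pooled tumors with no map from cells to tumors, so the groups cannot be tested against each other, none of the differences has a replicate check, and the intervals cover counting error only.

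Activating Fc gamma receptors have no strong signal of their own. They pair with the gamma chain encoded by Fcer1g, whose tyrosine motif is phosphorylated by Src family kinases and then recruits Syk, and this route leads to phagocytosis, degranulation and cytokine release when IgG complexes are bound. The inhibitory receptor Fcgr2b carries an opposite motif that recruits the phosphatase SHIP1, encoded by Inpp5d, so the level of activating relative to inhibitory receptors on a cell is commonly used as a measure of how readily it responds to IgG. Fcgr1 encodes the high affinity receptor CD64, Fcgr3 the receptor CD16 and Fcgr4 the mouse receptor CD16-2, whereas Fcgrt encodes the heavy chain of FcRn, which pairs with B2m inside the cell and returns IgG to the outside.

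In the GENCODE M21 annotation of the GRCm38 build, 4 of the 6 genes lie on chromosome 1 within 275.7 kb. These are Fcgr2b at chr1:170958617-170976547, Fcgr4 at chr1:171018920-171029761, Fcgr3 at chr1:171051174-171064935 and Fcer1g at chr1:171229572-171234365. Fcgr1 lies at chr3:96282909-96293969 and Fcgrt at chr7:45092990-45103851. Fcgr4 is on the forward strand and the other members are on the reverse strand. Annotated genes on the opposite strand overlap Fcgr2b (Gm38204) and Fcgrt (Gm45669), and on the same strand Mir6546 overlaps Fcgr3 and Gm26110 overlaps Fcgr4. Fcgr2b and Fcgr3 are close relatives, and 12.8% of the windows of 50 bases in the longest Fcgr3 transcript were also found in Fcgr2b transcripts. None of the windows in the last 500 bases of any member, the part nearest to the poly(A) tail, occurred in a transcript of another gene.

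The sequences before the start sites are shown for the 3 activating receptors and the inhibitory one, because these genes make up the ratio reported below. They are the 130 bases before the start of transcription, in the direction of transcription, as given by RefSeq for GRCm38.p6. Capitals mark TTCCTC, which is GAGGAA on the opposite strand and holds the GGAA core bound by PU.1, a factor of myeloid cells, and TTCNNNGAA, the letters of the gamma activated site through which interferon gamma acts.
Fcgr1, chr3:96293970-96294099, reverse strand: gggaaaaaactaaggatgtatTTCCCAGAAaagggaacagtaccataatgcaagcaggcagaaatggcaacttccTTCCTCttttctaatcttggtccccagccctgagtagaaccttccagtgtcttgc
Fcgr3, chr1:171059395-171059524, reverse strand: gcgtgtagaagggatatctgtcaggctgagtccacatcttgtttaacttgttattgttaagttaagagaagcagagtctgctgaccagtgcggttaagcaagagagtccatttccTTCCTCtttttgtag
Fcgr4, chr1:171018796-171018925, forward strand: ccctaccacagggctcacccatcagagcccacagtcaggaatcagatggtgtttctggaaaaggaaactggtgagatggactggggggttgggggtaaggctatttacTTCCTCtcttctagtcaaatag
Fcgr2b, chr1:170976072-170976201, reverse strand: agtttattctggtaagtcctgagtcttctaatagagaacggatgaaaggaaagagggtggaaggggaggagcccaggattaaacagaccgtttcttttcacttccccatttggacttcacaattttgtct
Searched on both strands over the 250 bases before each start, GAGGAA was found before all 3 activating receptor genes and in none of the windows of Fcgr2b, Fcer1g and Fcgrt. It is a common run of letters, present in 23.3% of the 32851 RefSeq start windows. The shorter GGAA core alone also occurs before Fcgr2b, in the sequence shown, and before Fcer1g and Fcgrt. TTCNNNGAA was found before Fcgr1 alone among the members and in 7.02% of all windows. Of the 2 start sites listed for Fcgr3, which lie inside the longer GENCODE gene, the downstream one is shown. The sequence shown for Fcgr2b also lies wholly inside its GENCODE gene, which begins further upstream. A match in these letters is a description of the sequence and not a binding site.

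Barcodes were kept as cells when they had at least 500 UMIs (unique molecular identifiers, each 1 captured RNA molecule), over 200 and under 6000 genes and under 5% mitochondrial UMIs. This left 8557 cells with a median of 5526 UMIs in the control IgG library and 11269 cells with a median of 8267 UMIs in the anti-CD3L1 library, and 26 barcodes occurred in both. Cells were placed in classes by fixed marker genes, none of them a member. Neutrophil-like cells numbered 5022 in control IgG and 427 in anti-CD3L1. C1q macrophage-like cells, mononuclear phagocytes with at least 8 UMIs of C1qa, C1qb and C1qc, numbered 369 and 3022. There were 764 and 1172 monocyte-like cells, 506 and 1611 remaining mononuclear phagocytes and 175 and 994 NK-like cells. The leading genes included C1qa, C1qb, C1qc and Apoe in the C1q class and Vcan, Ly6c2 and F13a1 in the monocyte-like class. All of these but Apoe were used by the gates, so their lead was set by the gating and does not test the names. Leading genes not used by these gates included Apoe and Ccl8 in the C1q class and Plcb1 and Thbs1 in the monocyte-like class, in both libraries. The remaining mononuclear phagocytes were led by Arg1 and Pf4 in control IgG and by Apoc2 and Il10 in anti-CD3L1. Leading genes were ranked against all other cells of the same library, and the mix of those cells differed. The lists therefore do not show whether this class held the same cells in both libraries, and the class is given only beside the others. Of the mononuclear phagocytes, 4.64% in control IgG and 8.20% in anti-CD3L1 had 4 to 15 C1q UMIs and so lay near that threshold. Levels are in CPM, UMIs of a gene per 1000000 UMIs of the class. They are not divided by gene length, on the assumption that each UMI is a molecule tagged at its 3′ end.

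The members were spread over the classes by role (the plot of the 6 genes by class). In the control IgG library Fcgr1 was highest in monocyte-like cells at 311 CPM (exact Poisson 95% interval 300.5 to 322), followed by C1q macrophage-like cells at 268 CPM (255 to 282), while neutrophil-like cells had 21.3 CPM (19.8 to 23.0). Fcgr3 was ordered otherwise, highest in neutrophil-like cells at 395 CPM (388 to 402) and lower in C1q macrophage-like cells at 260.2 CPM (247 to 274) and monocyte-like cells at 243 CPM (234 to 253), whose intervals overlapped. Fcgr4 led in C1q macrophage-like cells at 173 CPM (163 to 185), ahead of neutrophil-like cells at 97.9 CPM and monocyte-like cells at 92.4 CPM, whose intervals overlapped as well. Fcgr2b was highest in C1q macrophage-like cells at 328 CPM (314 to 344), at 206 CPM in monocyte-like cells and at 35.9 CPM (33.8 to 38.0) in neutrophil-like cells. The neutrophil-like class was therefore rich in Fcgr3 and poor in both Fcgr1 and Fcgr2b, while in the C1q macrophage-like class, and also among the remaining mononuclear phagocytes, the inhibitory gene exceeded each activating gene.

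The adaptor was the most abundant member in every class of at least 50 cells. In control IgG, Fcer1g reached 2845 CPM in neutrophil-like cells, 2419 CPM in C1q macrophage-like cells and 569 CPM in NK-like cells, a 5.00-fold range. Fcgrt varied most, from 122 CPM (113 to 132) in C1q macrophage-like cells to 2.74 CPM (2.19 to 3.38) in neutrophil-like cells and 1.79 CPM, 4 UMIs, in NK-like cells. NK-like cells carried Fcgr3 at 89.6 CPM and low levels of Fcgr1, Fcgr4 and Fcgr2b, between 10.3 and 19.3 CPM. These low values bear on free RNA, since the empty droplets of the same library, barcodes with 10 to 100 UMIs, held Fcgr1 at 116 CPM, Fcgr2b at 86.1 CPM and Fcer1g at 1974 CPM. They held Fcgr3 at 238 CPM, so the Fcgr3 level of NK-like cells lay below that of the empty droplets too.

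**Figure D1:**
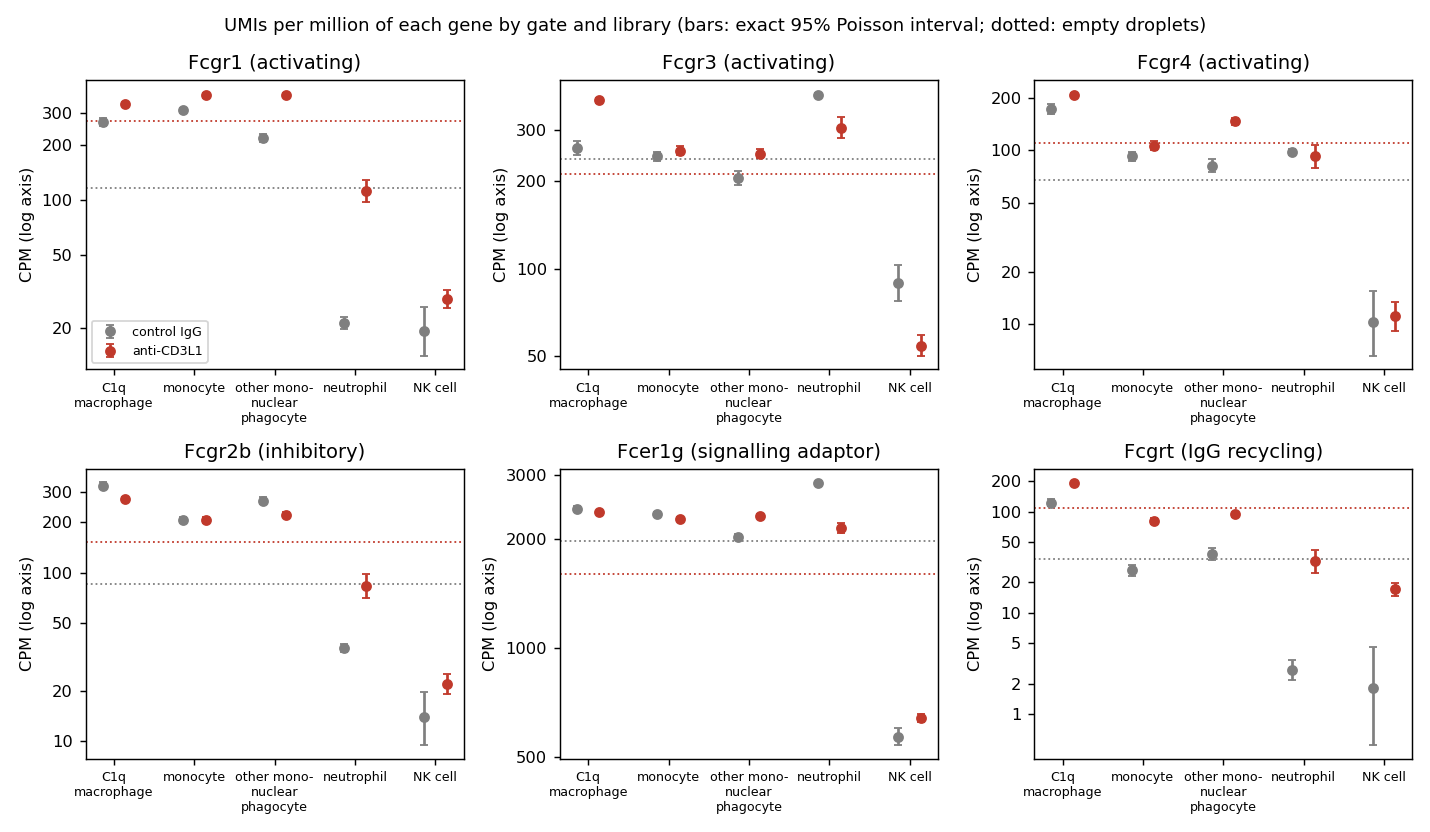
Levels of the 6 genes in CPM (log axis) in 5 classes of cells, with a grey point for the control IgG library, a red point for the anti-CD3L1 library, bars for the exact Poisson 95% interval and dotted lines for the empty droplets of each library. Fcgr3 was highest in neutrophil-like cells of control IgG at 395 CPM, whereas Fcgr1, Fcgr2b and Fcgrt were highest in mononuclear phagocytes.

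The anti-CD3L1 library held more cells of minor classes, so levels could be given in 11 classes of at least 50 cells. Type 2 conventional dendritic-like cells had the highest Fcgrt of all at 218 CPM (195 to 244), above C1q macrophage-like cells at 190.1 CPM, and also carried Fcgr2b at 148 CPM and Fcer1g at 1375 CPM. Plasmacytoid dendritic-like cells had Fcgrt at 98.4 CPM and Fcgr2b at 65.6 CPM, both below the empty droplets of this library. The Fcgr2b of type 2 conventional dendritic-like cells, at 148 CPM, was also no higher than the 152 CPM of these droplets. B cell-like cells, a type known to use Fcgr2b as its only Fc gamma receptor, had Fcgr2b at 79.3 CPM (52.3 to 115), yet Fcgr1 at 76.4 CPM, and the empty droplets of this library held Fcgr1 at 271 CPM and Fcgr2b at 152 CPM. When the 11 classes were ordered by level, the intervals of neighbours overlapped in 7 of 10 pairs for Fcgr1 and for Fcgr3, and most of these pairs were of lymphoid and dendritic classes.

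Next, the libraries were compared within C1q macrophage-like cells. All 3 activating genes were higher in anti-CD3L1 and the inhibitory gene was lower. Fcgr3 stood at 260.2 CPM in control IgG and 379 CPM in anti-CD3L1, a log2 ratio of 0.54 (exact binomial 95% interval 0.46 to 0.62). Fcgr1 went from 268 to 339 CPM, a log2 ratio of 0.34 (0.26 to 0.42). Fcgr4 went from 173 to 209 CPM, a log2 ratio of 0.27 (0.17 to 0.37). Each of these lay above the median of all 11959 genes with at least 50 UMIs in the class, which was 0.03. Fcgr2b went from 328 to 275 CPM, a log2 ratio of -0.26 (-0.33 to -0.18), and 24.4% of the genes of the class lay lower. The recycling receptor Fcgrt had the largest difference of the members, from 122 to 190.1 CPM with a log2 ratio of 0.64 (0.52 to 0.75). Fcer1g, the adaptor, was nearly level at 2419 and 2370 CPM, a log2 ratio of -0.03. None of the 6 members reached 2-fold in this class, where 4.83% of all genes were 2-fold or more higher in anti-CD3L1 and 3.55% were 2-fold or more lower.

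The ratio of activating to inhibitory UMIs lies within the same cells and needs no scaling to library totals. In C1q macrophage-like cells it was 2.14 in control IgG, from 3894 activating and 1823 inhibitory UMIs (exact binomial 95% interval 2.02 to 2.26), and 3.38 in anti-CD3L1, from 30839 and 9134 UMIs (3.30 to 3.46). The intervals did not overlap and the log2 change was 0.66 (exact conditional 95% interval 0.57 to 0.75). Fcgr2b alone made up 31.9% of the UMIs of the 4 receptors in control IgG and 22.9% in anti-CD3L1, while the share of Fcgr3 was 25.3% and 31.5%. Those of Fcgr1 were 26.0% and 28.2%, and those of Fcgr4 16.8% and 17.4%. Cells of this class carried more RNA of neutrophil markers in control IgG, a median of 11 UMIs of the 7 neutrophil marker genes per cell against 1 in anti-CD3L1. With the profile of empty droplets subtracted in proportion to these markers, the log2 change was 0.67, and the share taken off was 5.46% of the UMIs in control IgG and 13.4% in anti-CD3L1. Depth also differed, with medians of 14647 UMIs in control IgG and 10474 UMIs in anti-CD3L1 cells of this class.

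**Figure D2:**
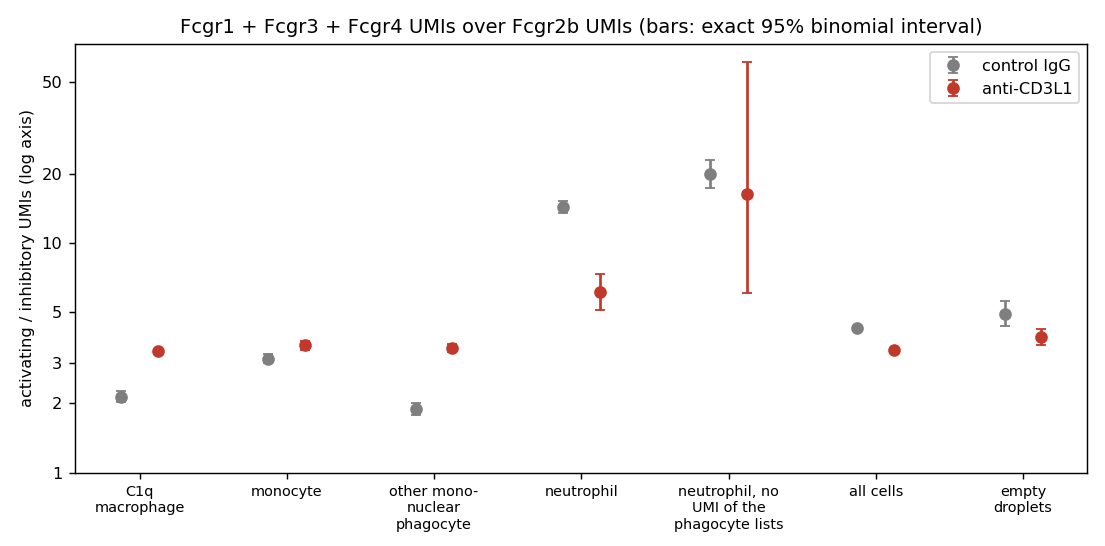
UMIs of Fcgr1, Fcgr3 and Fcgr4 over UMIs of Fcgr2b (log axis) by class and library, with exact binomial 95% intervals as bars. The ratio was 2.14 and 3.38 in C1q macrophage-like cells and 14.3 and 6.09 in neutrophil-like cells, while neutrophil-like cells without UMIs of the phagocyte lists stood at 19.8 and 16.2 with overlapping intervals.

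Monocyte-like cells differed less. Their activating to inhibitory ratio was 3.14 (2.99 to 3.29) in control IgG and 3.58 (3.42 to 3.75) in anti-CD3L1, a log2 change of 0.19 (0.09 to 0.29). Fcgr1 stood at 311 and 377 CPM, a log2 ratio of 0.28 (0.21 to 0.34), and Fcgr4 at 92.4 and 107 CPM, a log2 ratio of 0.21 (0.08 to 0.33). Over all 10328 genes tested in this class the median was 0.18, so relative to it the differences of Fcgr1 and Fcgr4 were 0.09 and 0.02. Fcgr2b was 206 CPM in both libraries and Fcgr3 was 243 and 254 CPM, with an interval of the log2 ratio from -0.01 to 0.14. Fcgrt was the member that stood apart, at 26.4 CPM (23.3 to 29.7) in control IgG and 81.2 CPM (76.0 to 86.6) in anti-CD3L1, a log2 ratio of 1.62 (1.43 to 1.82) that exceeded 98.0% of the genes of the class. It was the only member past 2-fold, against 6.52% of all genes higher and 2.34% lower. The empty droplets held Fcgrt at 33.9 CPM in control IgG and 109 CPM in anti-CD3L1, in each library above the level of monocyte-like cells. With the droplet profile subtracted the log2 ratio of Fcgrt was 1.34. This took off 4.58% of the UMIs of monocyte-like cells in control IgG and 31.9% in anti-CD3L1. It was scaled on neutrophil markers, some of which monocytes express too, so 1.34 is a rough value. The 6 genes of the C1q macrophage list, all detected, summed to 1466 and 3746 CPM in these cells, and their part in the Fcgrt difference was not tested. In the remaining mononuclear phagocytes the activating to inhibitory ratio was 1.90 and 3.50, a log2 change of 0.88 (0.78 to 0.99), with Fcgr1 at 220.4 and 377 CPM and Fcgr2b at 267 and 221 CPM. Fcgrt was 38.3 and 94.4 CPM there, a log2 ratio of 1.30 (1.10 to 1.51). It was again the only member past 2-fold, against 5.44% of all genes higher and 3.22% lower.

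Mononuclear phagocytes of all gates were then sorted by C1q UMIs per 10000 UMIs of the cell, which compares the libraries at like C1q level (the plot by C1q level). The activating to inhibitory ratio was higher in anti-CD3L1 in all 5 ranges, with no overlap of the intervals in any. At no C1q UMI it was 2.69 (2.57 to 2.80) in 1019 control IgG cells and 3.65 (3.49 to 3.82) in 1370 anti-CD3L1 cells. Above 100 C1q UMIs per 10000 it was 2.26 (2.05 to 2.49) in 100 control IgG cells and 3.67 (3.53 to 3.81) in 1075 anti-CD3L1 cells. Fcgrt followed C1q in both libraries, from 28.2 to 188 CPM in control IgG and from 85.4 to 265 CPM in anti-CD3L1, and Fcgr4 was also higher in the highest than in the lowest range, at 229.7 against 89.7 CPM and at 265 against 126 CPM. Fcgr2b climbed with C1q as well, from 224 to 370 CPM in control IgG and from 207 to 294 CPM in anti-CD3L1. Fcgr3 went from 229 to 308 CPM and from 243 to 467 CPM. It exceeded Fcgr2b in all 5 ranges of anti-CD3L1, whereas in control IgG it did so in the lowest range alone, by 229 against 224 CPM. Fcgr1 showed no such order, between 221 and 298 CPM in control IgG and between 307 and 387 CPM in anti-CD3L1. The gates that fill each range differ between the libraries, and their part in these values was not tested.

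**Figure D3:**
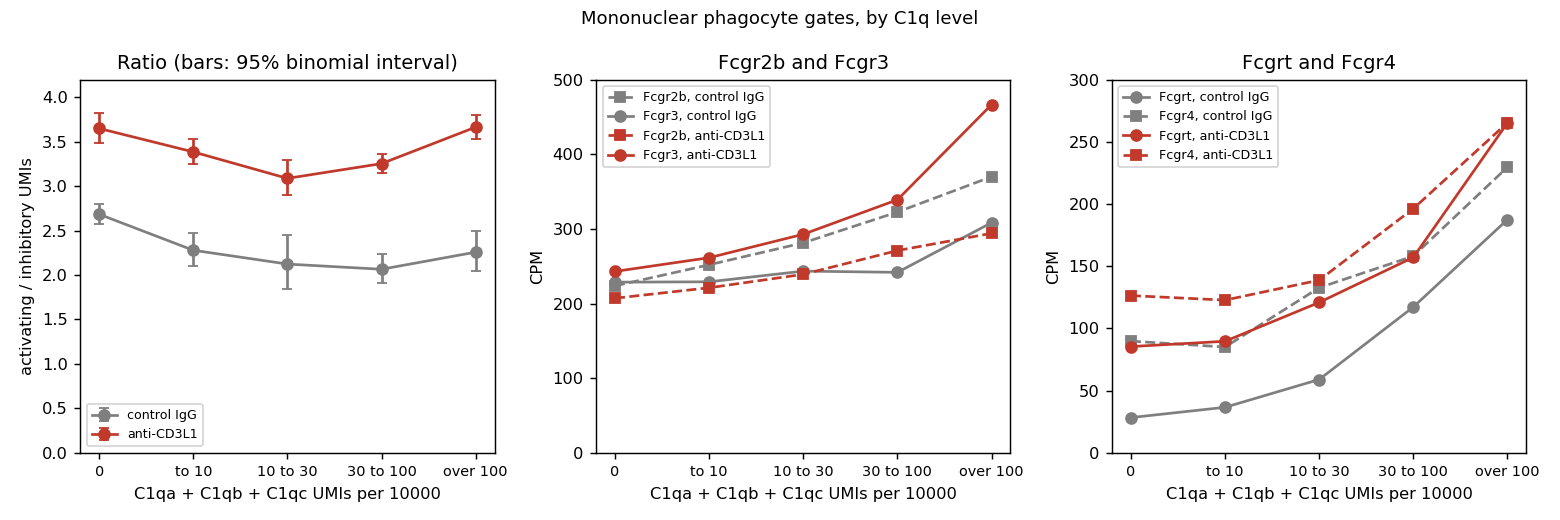
Mononuclear phagocytes in 5 ranges of C1qa, C1qb and C1qc UMIs per 10000 (horizontal axis), with the activating to inhibitory ratio and its 95% interval on the left, CPM of Fcgr2b and Fcgr3 in the middle and CPM of Fcgrt and Fcgr4 on the right, grey for control IgG and red for anti-CD3L1. The ratio of anti-CD3L1 lay between 3.09 and 3.67 and that of control IgG between 2.07 and 2.69.

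Within the C1q macrophage-like class, cells with a UMI of Folr2, a folate receptor of tissue macrophages, were set beside those without. In control IgG the activating to inhibitory ratio was 2.15 in 128 cells with Folr2 and 2.13 in 241 cells without, with overlapping intervals. In anti-CD3L1 it was 3.62 (3.49 to 3.74) in 1323 cells with Folr2 and 3.18 (3.08 to 3.28) in 1699 cells without. Fcgrt was higher in the cells with Folr2 in both libraries, 160.4 against 101 CPM in control IgG and 234 against 151 CPM in anti-CD3L1.

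The ratio was lower in anti-CD3L1 in neutrophil-like and in NK-like cells. In NK-like cells it was 8.58 (5.90 to 12.9) in control IgG, from 297 UMIs of the 4 receptors, and 4.30 (3.72 to 4.98) in anti-CD3L1, a log2 change of -0.997 (-1.62 to -0.41). RNA of other classes differed in these NK-like cells. The neutrophil markers summed to 12024 CPM in control IgG and 162 CPM in anti-CD3L1, and the C1q macrophage list to 170 and 1031 CPM. Their part in the NK-like change was not tested. In neutrophil-like cells the activating to inhibitory ratio was 14.3 (13.5 to 15.2) in control IgG and 6.09 (5.12 to 7.29) in anti-CD3L1, a log2 change of -1.23 (-1.50 to -0.96). Fcgr1 was 21.3 and 113 CPM, a log2 ratio of 2.40 (2.17 to 2.63), Fcgr2b was 35.9 and 83.8 CPM, a log2 ratio of 1.23 (0.97 to 1.47), and Fcgrt was 2.74 and 32.4 CPM, a log2 ratio of 3.57 (3.06 to 4.06). Fcgr3 was 395 and 306 CPM, a log2 ratio of -0.37 (-0.50 to -0.25), and Fcer1g 2845 and 2141 CPM. The 3 members past 2-fold stand in a class where 37.0% of all 9311 genes were 2-fold or more higher and 4.27% lower, and where the median gene differed by 0.71. Relative to that median the differences were 1.70 for Fcgr1, 0.52 for Fcgr2b, 2.86 for Fcgrt, -1.08 for Fcgr3 and -1.12 for Fcer1g. The anti-CD3L1 cells of this class were shallow, with a median of 2549 UMIs against 4822, and they held more RNA of mononuclear phagocytes. All 6 genes of the C1q macrophage list were detected in both libraries and their sum was 252 CPM in control IgG and 1868 CPM in anti-CD3L1, that of the 5 monocyte markers 136 and 804 CPM, and that of the 5 mononuclear phagocyte markers 214 and 578 CPM. Ngp and Camp, granule genes of immature neutrophils, were also higher, at 233 and 1189 CPM and at 44.6 and 628 CPM.

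When only neutrophil-like cells with no UMI of these 3 marker lists were taken, 1718 cells of control IgG and 53 cells of anti-CD3L1 were left. Fcgr1 then had 32 UMIs in control IgG and 0 of 109614 UMIs in anti-CD3L1, which allows up to 27.4 CPM, and Fcgrt had 5 UMIs and likewise 0. Fcgr2b was 25.8 CPM, 206 UMIs, and 36.5 CPM, 4 UMIs. The activating to inhibitory ratio became 19.8 (17.2 to 22.9) and 16.2 (6.05 to 61.4), and the log2 change was -0.29 (-1.73 to 1.64). That interval included no change and also the -1.23 of the whole class, so these few cells cannot decide whether the difference remained. Of 8 alternatives for the whole-class change, this choice included, 6 stayed within its interval of -1.50 to -0.96. Subtraction of free RNA was among these 6, and took off 9.56% of the UMIs in control IgG and 18.4% in anti-CD3L1. In the cells with no UMI of the 3 lists, Fcgr3 had 415 CPM (401 to 430) in control IgG and 529 CPM (402 to 684) in anti-CD3L1, the latter from 58 UMIs and with overlapping intervals. The cells left had medians of 4259 and 2086 UMIs.

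**Figure D4:**
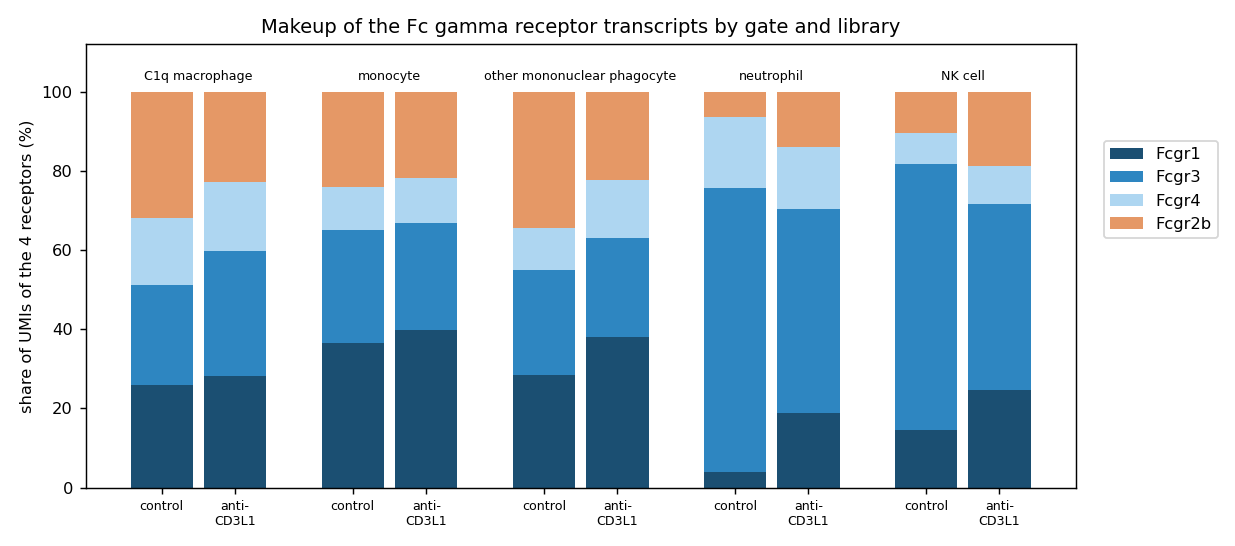
Share of Fcgr1, Fcgr3, Fcgr4 (blues) and Fcgr2b (orange) among the UMIs of these 4 receptors (vertical axis, percent) in 5 classes of the control IgG and anti-CD3L1 libraries. Fcgr2b made up 31.9% in C1q macrophage-like cells of control IgG and 6.52% in neutrophil-like cells, and Fcgr3 made up 71.8% in the latter.

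Over all cells the activating to inhibitory ratio was 4.26 (4.16 to 4.36) in control IgG and 3.43 (3.38 to 3.49) in anti-CD3L1, a log2 change of -0.31 (-0.35 to -0.27). Its direction was opposite to that in each of the 3 mononuclear phagocyte classes. Neutrophil-like cells, the class with the highest ratio in each library among those of at least 50 cells, were 58.7% of the cells in control IgG and 3.79% in anti-CD3L1. A sum over the whole sort thus mixes the makeup of the libraries with the levels inside each class.

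Adaptor and receptors were also compared as UMIs of Fcer1g per activating receptor UMI. There were 3.45 (3.33 to 3.57) in control IgG and 2.56 (2.52 to 2.59) in anti-CD3L1 among C1q macrophage-like cells, 3.62 and 3.08 among monocyte-like cells, and 5.53 and 4.19 among neutrophil-like cells. In NK-like cells the values were 4.77 (4.18 to 5.47) and 6.80 (6.35 to 7.27). The log2 change was -0.43 (-0.49 to -0.38) in C1q macrophage-like cells and 0.51 (0.29 to 0.73) in NK-like cells, in which Fcgr3 stood at 89.6 and 54.5 CPM. In NK-like cells of control IgG the neutrophil markers, of a class rich in Fcgr3, summed to 12024 CPM and in anti-CD3L1 to 162 CPM, and their part in the Fcgr3 difference was not tested.

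Shares of cells with a UMI were compared after every cell was thinned at random to 1000 UMIs. Of the C1q macrophage-like cells, 21.1% (exact binomial 95% interval 17.1 to 25.7%) had a UMI of Fcgr3 in control IgG and 29.1% (27.5 to 30.8%) in anti-CD3L1. For Fcgr1 the shares were 21.4% (17.3 to 26.0%) and 26.8% (25.2 to 28.4%), for Fcgr4 16.5% and 18.5%, and for Fcgr2b 27.6% (23.1 to 32.5%) and 23.3% (21.8 to 24.8%), with overlapping intervals for these 3 genes. Fcgrt was found in 9.76% (6.93 to 13.3%) and 16.5% (15.2 to 17.9%). NK-like cells, which should lack Fcgr1 and Fcgr2b or hold little of them, had 1.14% and 2.42% for Fcgr1 and 2.29% and 1.71% for Fcgr2b at the same depth. The neutrophil-like share for Fcgr1 was 1.12% in control IgG, close to that background. In anti-CD3L1 it was 3.07% (1.64 to 5.19%), with overlapping intervals. At 2000 UMIs per cell it was 9.43% (6.46 to 13.2%) against 3.14% (2.14 to 4.43%) in NK-like cells. That depth left out 109 shallower neutrophil-like cells of anti-CD3L1, against 3 at 1000 UMIs. The C1q macrophage list summed to 1868 CPM in the neutrophil-like class of anti-CD3L1, and the part of such RNA in this share was not tested. Without thinning, at the median depths of 14647 and 10474 UMIs, the shares of C1q macrophage-like cells were 86.4% and 87.6% for Fcgr3, 82.7% and 86.4% for Fcgr1, 73.4% and 72.3% for Fcgr4, 88.3% and 82.0% for Fcgr2b, and 62.6% and 70.9% for Fcgrt. The median NK-like cell had 11410 UMIs in control IgG and 9270.0 in anti-CD3L1, and 5.71% and 11.3% of them had a UMI of Fcgr1.

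Most C1q macrophage-like and monocyte-like cells held both kinds of receptor without thinning, while most neutrophil-like and NK-like cells did not. Without thinning, 85.4% of C1q macrophage-like cells in control IgG and 81.1% in anti-CD3L1 had UMIs of Fcgr2b and of an activating receptor, 10.6% and 17.3% had activating receptor UMIs only, and 2.98% and 0.927% Fcgr2b only. At 1000 UMIs per cell, activating UMIs only were found in 31.7% (27.0 to 36.7%) and 43.1% (41.3 to 44.9%), Fcgr2b only in 13.6% (10.2 to 17.5%) and 9.23% (8.22 to 10.3%), and both in 14.1% and 14.0%. Monocyte-like cells held both kinds in 73.6% in control IgG and 64.8% in anti-CD3L1 without thinning, at median depths of 13130.5 and 8828 UMIs. Neutrophil-like cells did so in 13.9% and 16.6%, with activating UMIs only in 69.3% and 49.6%, and NK-like cells in 8.00% and 8.05%. The neutrophil-like medians were 4822 and 2549 UMIs. Shares without thinning depend on depth, so these compare neither the libraries nor the classes at like depth. At 1000 UMIs per cell, Fcgr3 was found in 32.1% and 28.5% of neutrophil-like cells. Among those of control IgG, 38.1% had activating UMIs only and 1.52% Fcgr2b only at 1000 UMIs.

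The route downstream of the receptors was described through fixed gene lists (the plot of pathway genes). Of 15 activating kinases and effectors, none was 2-fold higher or lower in C1q macrophage-like cells. Of all genes of the class, 4.83% were 2-fold or more higher and 3.55% lower. The list median was -0.35 beside 0.03 for all genes. Of the 15 genes, 9 had an interval wholly on the lower side and 3 an interval wholly on the higher side. Lyn, a kinase that serves both activating and inhibitory receptors, was 872 and 664 CPM with a log2 ratio of -0.39 (-0.44 to -0.35). Syk, the kinase recruited by the gamma chain, was nearly level at 442 and 464 CPM. Vav3, a guanine nucleotide exchange factor, was higher, at 253 and 439 CPM, as was the linker Lat2 at 98.2 and 147 CPM. In monocyte-like cells the list median was -0.21 beside 0.18 for all genes, and Lyn was 1099 and 951 CPM.

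Of the 10 inhibitory phosphatases and regulators, none reached 2-fold in C1q macrophage-like cells, and the median was 0.11 beside 0.03 for all genes. Inpp5d, the phosphatase used by Fcgr2b, was 132 and 107 CPM, a log2 ratio of -0.30 (-0.42 to -0.19), and Ptpn6, which encodes the phosphatase SHP-1, was 168 and 119 CPM. Dok2 and Cblb, an adaptor and a ubiquitin ligase that restrain such signals, were higher, with log2 ratios of 0.78 (0.56 to 1.01) and 0.72 (0.55 to 0.89). Neutrophil-like cells had 4 of these 10 genes at 2-fold or more higher, where 37.0% of all genes were, so this count is near the background, and their median was 0.92 beside 0.71 for all genes.

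Among 14 other receptors with an inhibitory motif, 3 were 2-fold or more lower and none higher in C1q macrophage-like cells. Over all genes of the class 3.55% were 2-fold or more lower and 4.83% higher, and the list median was -0.32 beside 0.03. The 3 were Siglece at 48.5 and 11.3 CPM, Cd33 at 25.2 and 10.9 CPM and Cd72 at 654 and 306 CPM. Siglece and Cd33, both sialic acid receptors, were also 2-fold lower in monocyte-like cells, with log2 ratios of -1.84 (-2.19 to -1.51) and -1.11 (-1.42 to -0.81), as was Pilra at 114 and 54.4 CPM. Siglece and Cd33 were higher in neutrophil-like cells of control IgG than in its C1q macrophage-like cells, at 156 and 309 CPM, and the part of neutrophil RNA in these differences was not tested. Sirpa, the receptor of the signal carried by CD47, was 298 and 328 CPM in C1q macrophage-like cells.

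Other receptors that use the gamma chain were lower in anti-CD3L1 among C1q macrophage-like and monocyte-like cells. Of the 8 genes of this list in the files, 4 had at least 50 UMIs in C1q macrophage-like cells, with a median of -0.45 beside 0.03 for all genes. Clec4e, the receptor Mincle, was 385 and 290.1 CPM and Clec4n, the receptor Dectin-2, 271 and 160 CPM. In monocyte-like cells the median of the same 4 was -0.71 beside 0.18 for all genes, and Clec4e was 1334 and 747 CPM. In neutrophil-like cells the median of the 4 was -0.05 beside 0.71 for all genes. Clec4e stood there at 3694 CPM in control IgG and 1537 CPM in anti-CD3L1, and Clec4n at 106 and 218 CPM. In C1q macrophage-like cells the neutrophil markers summed to 3821 CPM in control IgG and 208 CPM in anti-CD3L1. In monocyte-like cells they summed to 3205 and 494 CPM. The part of neutrophil RNA in the Clec4e differences of these 2 classes was not tested. Of the other adaptors, Tyrobp had a log2 ratio of 0.33 (0.30 to 0.36) in C1q macrophage-like cells, from 1467 to 1845 CPM, and was 2014 and 2084 CPM in monocyte-like cells. In C1q macrophage-like cells Tyrobp, which encodes the adaptor DAP12, was thus higher in anti-CD3L1, while Fcer1g was nearly level, with a log2 ratio of -0.03. The sign of this Fcer1g value depended on whether free RNA was subtracted, as given below.

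Among 13 further Fc receptors and relatives, 6 had at least 50 UMIs in C1q macrophage-like cells, with a median of -0.45 beside 0.03 for all genes, and 2 were 2-fold or more lower, as were 3.55% of all genes. Fcrls, a scavenger-type Fc receptor relative, was 228 and 53.3 CPM, a log2 ratio of -2.10 (-2.20 to -1.99), and Fcrl5 was 19.5 and 6.61 CPM. Fcrls went the other way in monocyte-like cells, at 1.15 and 10.4 CPM, from 12 and 117 UMIs. The C1q macrophage list summed to 1466 and 3746 CPM in monocyte-like cells, and the part of such RNA in this difference was not tested. Fcer1a and Fcmr, which encode receptors for IgE and IgM, had at most 1 UMI in either library in these classes. B2m, the light chain of FcRn, had a log2 ratio of -0.23 (-0.26 to -0.20) in C1q macrophage-like cells, from 2307 to 1967 CPM, whereas Fcgrt was higher there.

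**Figure D5:**
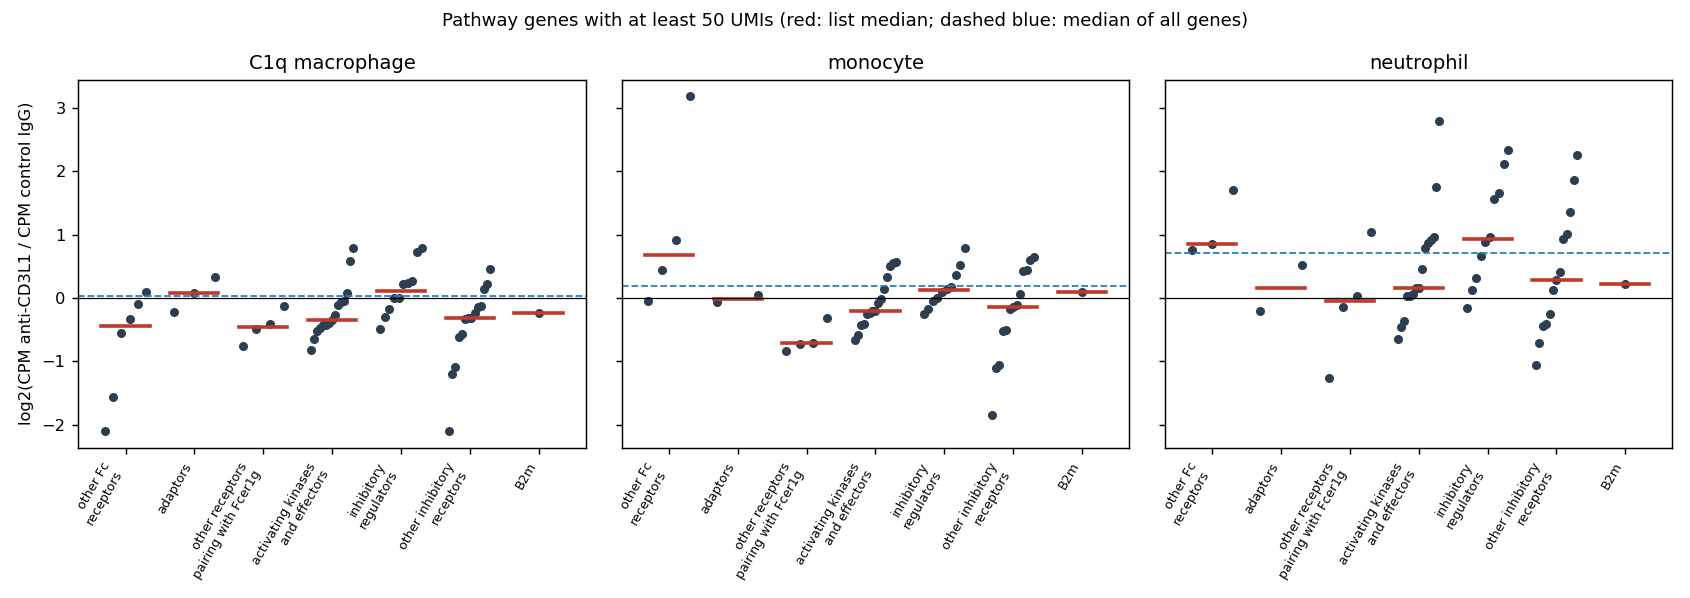
Log2 ratios of anti-CD3L1 over control IgG (vertical axis) for the genes of 7 lists with at least 50 UMIs in 3 classes, each point a gene, red bars the list medians and the dashed blue line the median of all genes. In C1q macrophage-like cells the activating kinases and effectors lay at a median of -0.35 and the inhibitory regulators at 0.11.

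Finally, genes with the pattern most like each member were looked for over the 16 pairs of class and library with at least 50 cells, by Pearson r of log2(CPM + 10) among 5759 genes. Among those closest to Fcgr1 were Slc7a8 (r = 0.98) and Itgb5 (0.97). Sdcbp (0.96), Atp6v1e1 (0.95) and Igsf6 (0.95) were closest to Fcgr3, and Atp6v1a (0.96), Plin2 (0.96) and Cd300lb (0.95) to Fcgr4. For Fcgr2b they were Adam15 (0.98), Dnase1l1 (0.97) and Rnasek (0.97), for Fcer1g Tlr2 (0.96), Atp6v1e1 (0.96) and Noct (0.96), and for Fcgrt Tep1 (0.93), Slamf9 (0.92) and Uap1l1 (0.91). Between members, r was 0.95 for Fcgr3 and Fcer1g and 0.92 for Fcgr1 and Fcgr2b, but 0.58 for Fcgr1 and Fcgr3 and 0.10 for Fcgr3 and Fcgrt. The pairs share their library, its depth and its free RNA, so these values describe the pattern only.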

How the data were processed

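Deposited values were unnormalized UMI counts of each gene in every barcode of 2 libraries. The submitters' processing notes name Cell Ranger 7.1.0, Seurat 5.1.0 and the build GRCm39, and no role is given for each. A table the authors made of macrophage fold changes and p-values was not used. Coordinates and transcripts came from GENCODE M21 and upstream sequences from RefSeq, both of GRCm38.

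Cells were gated by at least 3 detected markers and 5 marker UMIs of a class. S100a8 and S100a9 were left out of the neutrophil gate because free RNA carried them. Doublets were not removed, and 2.21% of control IgG and 7.55% of anti-CD3L1 cells passed several gates and were placed by a fixed order. Within each library, UMIs of all cells in a class were added up. With 1 library per group no test was made. Intervals are exact at 95% and a count of 0 was given the limit of 3 counts. The scripts were tested on simulated data. Members, gene lists and rules were chosen with earlier results of these data known. The named genes are the members, the pathway lists and the 3 genes most like each member. A few results by these rules are not reported here. Python 3.11.15, numpy 2.4.6, scipy 1.17.1 and pandas 2.3.3 were used.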

Additional observations from a re-analysis of the deposited data

Results flagged for a closer look

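The activating to inhibitory ratio went in opposite directions between classes of cells under the same comparison. Its log2 change from control IgG to anti-CD3L1 was 0.66 in C1q macrophage-like cells, 0.19 in monocyte-like cells and 0.88 in the remaining mononuclear phagocytes, and -1.23 in neutrophil-like cells and -0.997 in NK-like cells. In C1q macrophage-like, monocyte-like and neutrophil-like cells Fcgr3 had log2 ratios of 0.54, 0.065 and -0.37, and Fcgr2b had -0.26, -0.00086 and 1.23. The difference between the classes was not tested, since each group is 1 library. In neutrophil-like cells with no UMI of the mononuclear phagocyte, C1q macrophage and monocyte lists the log2 change of the ratio was -0.29 (-1.73 to 1.64). It came from 53 cells and 4 Fcgr2b UMIs in anti-CD3L1, and its interval included the -1.23 of the whole class.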

How the results depend on the processing

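In C1q macrophage-like cells the log2 change of the activating to inhibitory ratio stayed within the 95% interval of 0.57 to 0.75 under all 7 alternatives, from 0.66 to 0.70. In monocyte-like cells, where it was 0.19, it was 0.34 with doubled marker UMIs in the gate and 0.32 as a mean over cells. With Fcgr3 and Fcgr4 alone as activating it was -1.53 in neutrophil-like cells and -0.69 over all cells, and as a mean over cells -0.89 over all cells. In neutrophil-like cells with no UMI of the mononuclear phagocyte lists, a choice made after seeing the data, it was -0.29 (-1.73 to 1.64). The other 6 of the 8 alternatives in neutrophil-like cells, subtraction of free RNA among them, stayed within the main interval of -1.50 to -0.96. In C1q macrophage-like cells no member passed 2-fold and Fcgrt alone passed 1.5-fold. It stood at 1.55-fold, above 90.0% of the genes of the class. Of 147 alternative values of member levels 115 lay within the main interval. Signs were compared only where the main interval did not include equal levels, and 3 such values had the opposite sign. With free RNA subtracted the log2 ratio of Fcer1g was 0.025 in C1q macrophage-like and 0.084 in monocyte-like cells, and in the neutrophil-like cells without those UMIs that of Fcgr3 was 0.35, from 58 UMIs in anti-CD3L1. The subtraction took neutrophil markers as the measure of free RNA, some of which monocytes express too. In monocyte-like cells it took off 4.58% of the UMIs in control IgG and 31.9% in anti-CD3L1. Of 108 shares of cells at other depths 103 lay outside the interval of the share at 1000 UMIs, since a share rises with depth. No paired analysis was possible because each group is 1 library. Leaving out a replicate was not possible for the same reason, and variation between tumors could not be estimated.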
